A study of Mus musculus with 24 samples.

Results

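Messenger RNA of 9 collagen genes was measured in whole mouse kidneys with graded hydronephrosis. They are the fibrillar chains *Col1a1*, *Col1a2*, *Col3a1* and *Col5a2*, the basement membrane chains *Col4a1*, *Col4a2* and *Col4a3*, and *Col15a1* and *Col18a1*, whose products lie where basement membrane meets connective tissue. The genes were chosen by name from a set of 10, and a probe belonged to a gene if its accession was listed for that gene in RefSeq. The probe accessions matched 9 of the 10 genes through 12 probes, and *Col6a3* was not analysed here because no accession matched it. All 9 passed the filter on dim probes and belong to the 27958 genes tested, of which 36 were collagen genes.

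The kidneys came from age-matched male mice, labelled young adult and only a few weeks old by the study's methods, and each was hybridized with a single dye to its own array. The 6 control kidneys were *mgb*+/+ and the other 18 were *mgb*-/-, the megabladder mutant, in which the bladder wall lacks tone and urine backs up into the kidneys, already in fetal life. By the ultrasound grade of preserved parenchyma, 7 *mgb*-/- kidneys were mild, 5 moderate and 6 severe. The labels name no treatment, and they give neither the strain background nor the side, nor how many kidneys each mouse contributed. Kidneys were therefore taken as independent samples, and p-values measure the spread between these samples. Every dilated kidney was also a mutant kidney, so effects of the dilatation and of the mutation cannot be told apart.

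Fibrillar collagens are triple helices that are secreted as procollagens, trimmed at both ends, packed into fibrils and cross-linked. They fill the interstitium between tubules and are made there by fibroblasts, pericytes and myofibroblasts, and their accumulation is the hallmark of renal fibrosis. Type IV collagen forms a sheet-like network instead. The network of α1 and α2 chains (*Col4a1*, *Col4a2*) is found in nearly all basement membranes, whereas the α3, α4 and α5 chains (*Col4a3*, *Col4a4*, *Col4a5*) build the mature glomerular basement membrane, and their loss causes Alport syndrome.

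A level below is the log2 of the background-subtracted signal after division by the 75th percentile of the array, so that 0 stands for that percentile, and levels of different genes come from different probes and were not set against each other. The share of spots well above background ran from 56.6% to 71.5% over the 24 arrays, the 75th percentile ran from 496 to 968 intensity units, and no spot was saturated. Severe kidney 4 stood apart technically, with 660 outlier spots against 102 to 261 on the other arrays and the lowest share of spots well above background. The only spot for *Col1a1* was among its outlier spots, so that *Col1a1* rests on 23 kidneys. All 9 collagens were well above background on every array that gave a value. The kidney label fitted the data, since all 8 proximal tubule markers were well above background in a kidney or more of every group, and their summed level was 9.84 to 10.10 in control kidneys. Groups were compared with limma and Benjamini-Hochberg adjustment over all genes, and a gene passed at an adjusted p under 0.05.

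In *mgb*-/- against control kidneys none of the 9 collagens passed, whereas 13.3% of all genes did (1493 higher and 2238 lower). With each array scaled by its median, which moved the median of all genes by -0.15, 601 genes were higher and 2802 lower. Without the adjustment, 1 collagen (*Col1a1*) and 29.0% of all genes had a p under 0.05. The log2 change was positive for 8 of the 9 collagens, with a median of 0.32 beside 0.01 for all genes tested. The estimates ran from -0.31 for *Col15a1* to 0.71 for *Col1a1*, with standard errors of 0.14 to 0.35. None of the 9 passed in mild against control kidneys either, where 6.02% of all genes did, nor in moderate against control (1.20%) or severe against control (16.1%). Between grades, none passed in severe against mild kidneys (0.587% of all genes), in moderate against mild (0%), in severe against moderate (0.00715%) or for a slope over the grades (0.232%). Their unadjusted p was under 0.05 for 1 collagen each in mild against control, severe against mild, severe against moderate and the slope, which was *Col4a3* every time, and for none in the other comparisons.

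**Figure D1:**
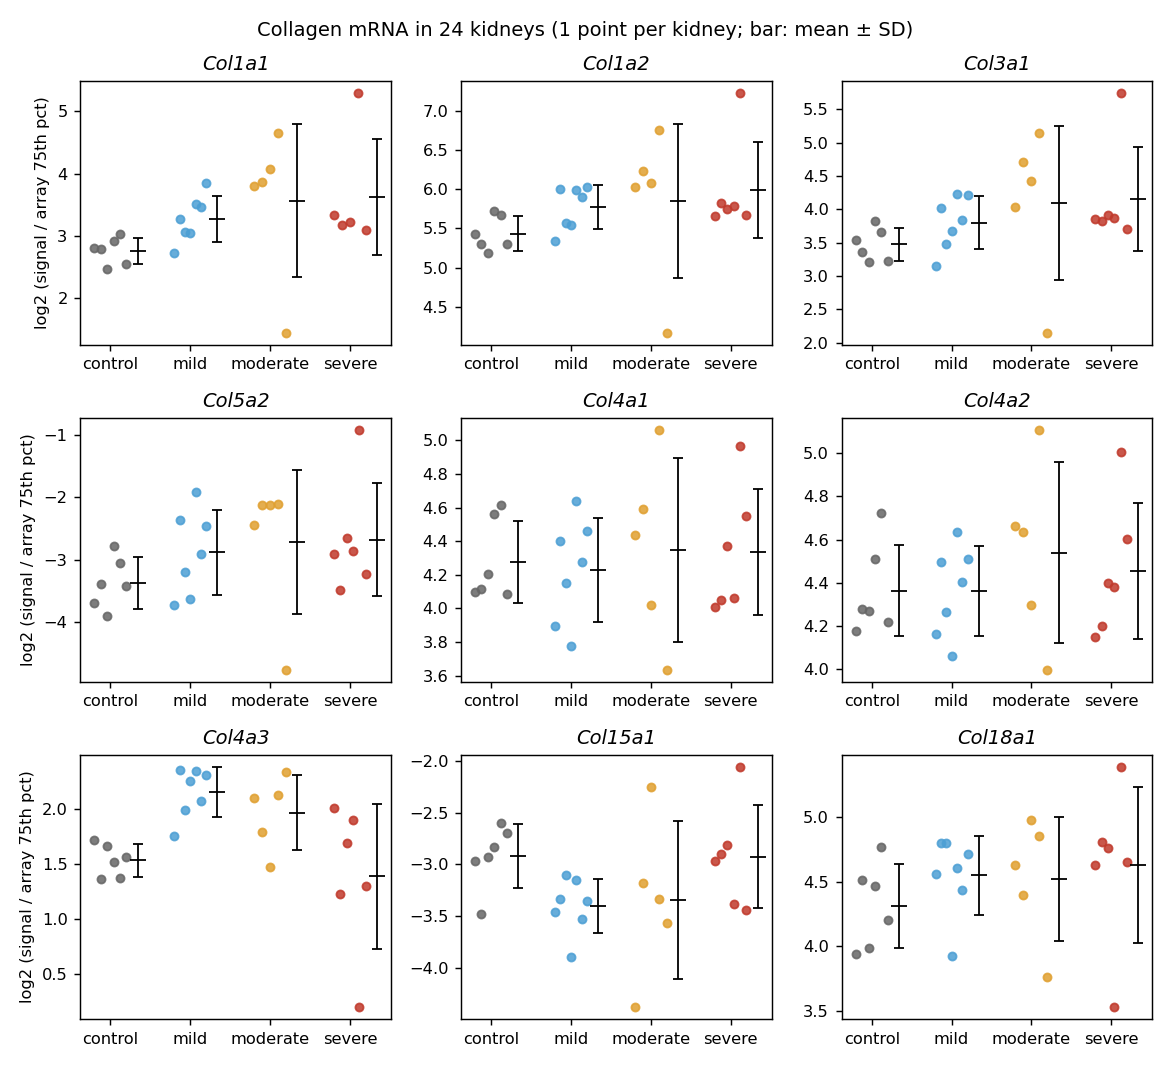
Levels of the 9 collagens in each kidney (log2 of the signal over the array's 75th percentile, vertical axes that differ between panels), with the mean and SD of each group beside its points; *Col1a1* has 5 severe kidneys and all other panels have 6. The 4 fibrillar chains show a single low moderate kidney and a single high severe kidney, and *Col4a3* lies above the control range in all 7 mild kidneys.

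*Col1a1* and *Col1a2* encode the α1 and α2 chains of type I collagen, the most abundant fibril of connective tissue. The *Col1a1* level in control kidneys ran from 2.47 to 3.02 with a median of 2.79. In mild kidneys it ran from 2.72 to 3.85 with a median of 3.27. Moderate kidneys had 1.44, 3.80, 3.87, 4.07 and 4.66, and the 5 severe kidneys with a value had 3.09, 3.17, 3.22, 3.33 and 5.30. Thus 15 of 17 *mgb*-/- kidneys lay above the highest control, 1 lay below the lowest, and 1 (mild kidney 1) lay within the control range. The mean was 2.75 ± 0.21 (SD, n = 6) in control and 3.46 ± 0.82 (n = 17) in *mgb*-/- kidneys, so that the spread was 3.87 times as wide in the mutants. The log2 change was 0.71 (SE 0.33, 95% interval 0.02 to 1.40, limma adjusted p = 0.159), a fold of 1.63, and did not pass. Without moderate kidney 5, the low one, it was 0.83 (limma adjusted p = 0.0372) and passed, and in moderate against control kidneys it was 1.34 (limma adjusted p = 0.0291). Of 27958 genes, 1881 were then higher and 2814 lower in mutant against control, and 627 and 582 in moderate against control kidneys.

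For *Col1a2*, control kidneys ran from 5.19 to 5.72 with a median of 5.36 and mild kidneys from 5.34 to 6.03 with a median of 5.90. Moderate kidneys had 4.17, 6.02, 6.07, 6.24 and 6.76, and severe kidneys ran from 5.66 to 7.22 with a median of 5.77. The highest control was exceeded by 12 of 18 *mgb*-/- kidneys. The change was 0.43 (SE 0.25, 95% interval -0.09 to 0.95, limma adjusted p = 0.266).

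*Col3a1* encodes type III collagen, the fibril of reticular fibres and vessel walls. Its level ran from 3.21 to 3.83 in control kidneys (median 3.46) and from 3.15 to 4.23 in mild kidneys (median 3.84). Moderate kidneys had 2.15, 4.03, 4.42, 4.71 and 5.14, and severe kidneys ran from 3.71 to 5.74 with a median of 3.86. The mutants again spread to both sides of the controls, with 13 of 18 above the highest control and 2 below the lowest. The change was 0.52 (SE 0.31, 95% interval -0.11 to 1.16, limma adjusted p = 0.272).

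*Col5a2* encodes a chain of type V collagen, a minor fibrillar collagen that starts and limits the growth of type I fibrils. It ran from -3.91 to -2.78 in control kidneys (median -3.40) and from -3.72 to -1.92 in mild kidneys (median -2.90). Moderate kidneys had -4.76, -2.44, -2.13, -2.12 and -2.12, and severe kidneys ran from -3.48 to -0.93 with a median of -2.89. Of the 18 mutants, 9 lay above the highest control. The change was 0.60 (SE 0.35, 95% interval -0.12 to 1.33, limma adjusted p = 0.267).

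By grade, the estimates for the 4 fibrillar chains were 0.33 to 0.52 in mild, 0.42 to 0.81 in moderate and 0.55 to 0.87 in severe against control kidneys, with limma adjusted p of 0.176 to 0.692. The means of the grades stood in the order mild, moderate and severe for each of the 4, but no neighbouring pair differed beyond its spread, and the severe medians lay below the moderate ones. The moderate and severe estimates kept their sign but changed in size when moderate kidney 5 or severe kidney 5 was left out. Without severe kidney 5 the severe estimates were 0.45 for *Col1a1*, 0.31 for *Col1a2*, 0.36 for *Col3a1* and 0.34 for *Col5a2*. Each then lay below the moderate estimate of its chain, so the order of the grades did not hold. Without moderate kidney 5 the moderate estimates were 0.84 for *Col1a2* to 1.34 for *Col1a1*, and only that of *Col1a1* passed, beside 627 genes higher and 582 lower. Each then exceeded the severe estimate of its chain, so that order did not hold here either. With each kidney left out in turn, moderate estimates ran from 0.54 to 1.34 for *Col1a1* and from 0.19 to 0.84 for *Col1a2*. Severe estimates ran from 0.45 to 1.00 for *Col1a1* and from 0.31 to 0.62 for *Col1a2*. Severe against mild gave 0.21 to 0.35 (limma adjusted p = 0.763 to 0.903), with intervals that together run from -0.69 to 1.22. Differences between these grades within the interval of each chain were therefore not excluded. With the slide as a block, *Col1a1* gave 0.70 (limma adjusted p = 0.183). Within slides 1, 2 and 3 the untested differences between mutant and control were 0.69, 0.53 and 0.90 for *Col1a1*, 0.35, 0.41 and 0.54 for *Col1a2*, 0.32, 0.61 and 0.64 for *Col3a1*, and 0.26, 0.75 and 0.79 for *Col5a2*.

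**Figure D2:**
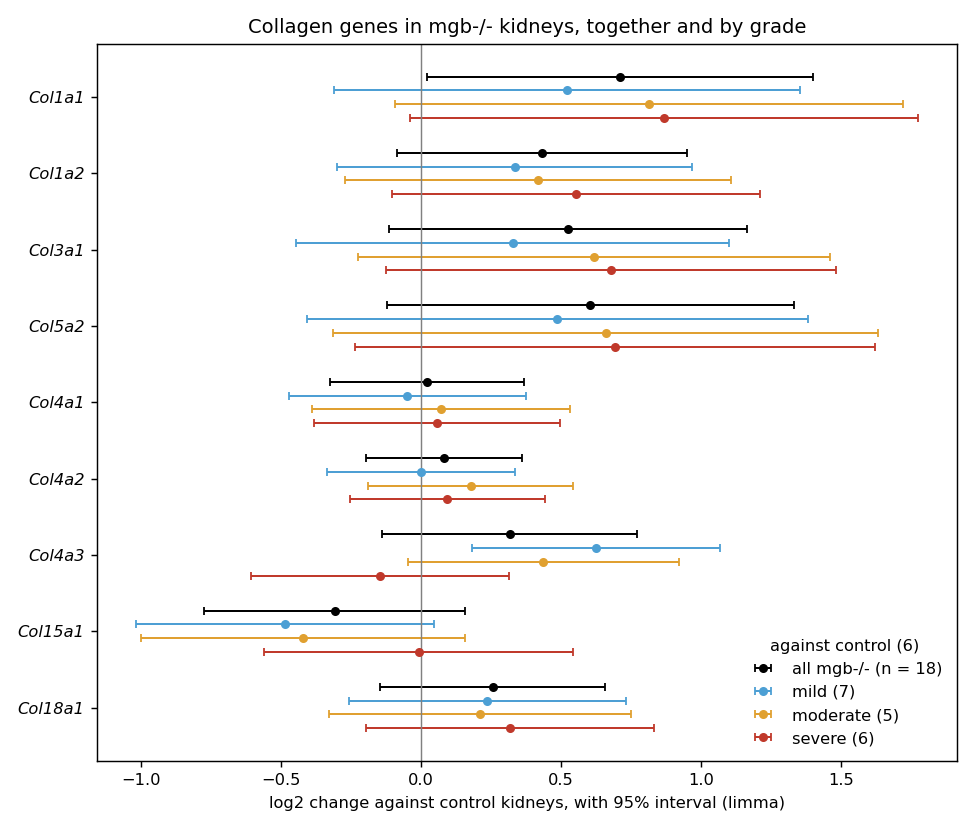
Log2 change of each collagen against the 6 control kidneys with its 95% interval from limma, for all *mgb*-/- kidneys (black) and for the mild, moderate and severe grades. The fibrillar chains lie to the right of 0 in every grade with intervals that cross 0 in each grade, *Col4a1* and *Col4a2* lie near 0, and *Col4a3* runs from 0.62 in mild to -0.15 in severe kidneys.

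The same 2 kidneys marked the ends of all 4 fibrillar chains. Moderate kidney 5 had the lowest level of the 24 kidneys for each chain, and severe kidney 5 had the highest. In bulk tissue, fewer cells of a type and less RNA per cell cannot be told apart, so marker levels are given beside these values. The summed level of 10 fibroblast and pericyte markers was 4.11 to 4.36 in control, 3.97 to 4.31 in mild, 4.07 to 4.88 in moderate and 4.18 to 5.01 in severe kidneys. Moderate kidney 5 held the lowest and severe kidney 5 the highest value of their groups. The summed level of 7 smooth muscle and myofibroblast markers was 4.81 to 5.61 in control, 5.37 to 6.10 in mild, 4.93 to 6.91 in moderate and 5.76 to 7.09 in severe kidneys, and the same 2 kidneys again held the lowest moderate and the highest severe value. For 8 proximal tubule markers the direction was the opposite, with moderate kidney 5 highest in its group (10.25) and severe kidney 5 lowest in its group (8.02). None of these markers was below background throughout a group, and their part in the collagen values was not tested. In *mgb*-/- against control kidneys, 1 of the 10 fibroblast and pericyte markers rose (*Dpt*, dermatopontin, by 0.91) and 2 fell (*Meox1* by 1.05 and *Nt5e* by 0.75), beside 13.3% of all genes. With kidneys left out in turn, 0 to 3 rose and 0 to 2 fell. Of the 7 smooth muscle markers, 2 rose, *Tagln* by 1.28 (SE 0.30, limma adjusted p = 0.00842) and *Acta2* by 1.20 (SE 0.34, limma adjusted p = 0.0223), and none fell. *Acta2* did not pass with median scaling (limma adjusted p = 0.0513).

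The promoters of *Col1a2* and *Col3a1* are printed because these chains moved together with *Col1a1* over kidneys, as given further on, while their upstream sequences differ. Both are RefSeq windows of mouse assembly GRCm38.p6 on the plus strand, *Col1a2* at chr6:4505368-4505647 and *Col3a1* at chr1:45311288-45311567. Each holds 250 bases before and 30 after the annotated start. Capitals mark matches to the CCAAT box bound by NF-Y, to the GC box GGGCGG and to CAGAC, a core of SMAD binding. Both strands were searched, so that the first motif may read ATTGG, the GC box may read CCGCCC and the SMAD core may read GTCTG. No match overlapped another.

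Col1a2: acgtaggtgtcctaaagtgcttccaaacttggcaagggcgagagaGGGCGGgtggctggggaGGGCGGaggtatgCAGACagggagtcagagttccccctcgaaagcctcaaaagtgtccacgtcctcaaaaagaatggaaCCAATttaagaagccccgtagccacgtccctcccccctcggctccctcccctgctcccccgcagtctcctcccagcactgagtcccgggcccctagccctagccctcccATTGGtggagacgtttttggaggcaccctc

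Col3a1: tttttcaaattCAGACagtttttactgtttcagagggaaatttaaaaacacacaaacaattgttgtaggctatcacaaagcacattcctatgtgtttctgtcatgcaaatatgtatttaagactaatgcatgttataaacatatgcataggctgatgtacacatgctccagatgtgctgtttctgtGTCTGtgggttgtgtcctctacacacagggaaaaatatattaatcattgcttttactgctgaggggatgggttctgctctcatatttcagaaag

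The *Col1a2* window holds CCAAT 109 bases before the start, ATTGG at the start itself, GGGCGG 2 times and CAGAC 1 time, and 61.1% of its bases are G or C. The *Col3a1* window holds neither CCAAT nor GGGCGG, has CAGAC 1 time and GTCTG 1 time, and is 36.1% G or C. Among all 32851 RefSeq promoter windows of this length, 36.1% hold CCAAT on either strand, 34.7% hold GGGCGG, 46.8% hold CAGAC, and the median G and C share is 52.5%. Such matches are common, and they describe the letters only. The table held windows for 7 of the 10 genes.

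*Col4a1* and *Col4a2*, the α1 and α2 chains of the common type IV network, had mutant means close to their control means, with single mutants on both sides of the control range. *Col4a1* ran from 4.09 to 4.61 in control kidneys (median 4.16) and from 3.64 to 5.06 in *mgb*-/- kidneys (median 4.32). Of the 18 mutants, 3 lay above the highest control and 7 below the lowest. *Col4a2* ran from 4.18 to 4.72 in control (median 4.27) and from 4.00 to 5.11 in *mgb*-/- kidneys (median 4.40), with 2 mutants above and 4 below the control range. The means of *Col4a1* were 4.28 ± 0.24 (SD, n = 6) and 4.30 ± 0.39 (n = 18). The change was 0.02 for *Col4a1* (SE 0.17, 95% interval -0.33 to 0.37, limma adjusted p = 0.954) and 0.08 for *Col4a2* (SE 0.14, 95% interval -0.20 to 0.36, limma adjusted p = 0.739). Both estimates turned negative with median scaling, -0.14 and -0.08, which shifts all genes by a like amount. By grade, *Col4a1* gave -0.05, 0.07 and 0.06 and *Col4a2* gave 0.00, 0.18 and 0.09 in mild, moderate and severe against control kidneys, and no interval reached beyond 0.54 on either side. Moderate kidney 5 was lowest and moderate kidney 4 highest for both chains.

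The *Col4a1* and *Col4a2* genes lie head to head, and their promoters are printed because the chains also moved together. The *Col4a1* window is at chr8:11312797-11313076 on the minus strand and the *Col4a2* window at chr8:11312555-11312834 on the plus strand, both of GRCm38.p6 and with the same marks as above.

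Col4a1: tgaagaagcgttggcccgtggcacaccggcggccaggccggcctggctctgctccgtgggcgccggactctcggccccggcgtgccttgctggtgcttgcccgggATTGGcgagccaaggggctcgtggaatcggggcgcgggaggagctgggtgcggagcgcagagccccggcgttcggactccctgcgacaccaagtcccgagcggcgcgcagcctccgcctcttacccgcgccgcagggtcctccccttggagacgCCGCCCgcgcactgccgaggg

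Col4a2: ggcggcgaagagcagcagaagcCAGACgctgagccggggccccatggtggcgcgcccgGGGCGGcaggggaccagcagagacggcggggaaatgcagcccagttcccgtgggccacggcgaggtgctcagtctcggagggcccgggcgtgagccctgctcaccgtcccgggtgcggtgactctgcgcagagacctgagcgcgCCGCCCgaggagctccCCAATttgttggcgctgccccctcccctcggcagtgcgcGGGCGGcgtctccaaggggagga

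The annotated starts are 21 bases apart and the windows share 38 bases, so the CCGCCC near the end of the *Col4a1* line and the last GGGCGG of the *Col4a2* line are a single site read on opposite strands. *Col4a1* also holds ATTGG 145 bases before its start, and *Col4a2* holds CCAAT 32 bases before its start. With 74.6% and 73.6% G and C, both windows lie above the median of 52.5%.

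*Col4a3* encodes the α3 chain of the glomerular network, whose end domain is the Goodpasture antigen. Its group mean was highest in mild and lowest in severe kidneys, but no comparison between grades passed. Control kidneys ran from 1.36 to 1.72 with a median of 1.54. Mild kidneys ran from 1.75 to 2.36 with a median of 2.25, so that all 7 lay above the highest control. Moderate kidneys had 1.47, 1.80, 2.11, 2.13 and 2.34, with 4 of 5 above the highest control. Severe kidneys ran from 0.20 to 2.01 with a median of 1.49, and 2 lay above and 3 below the control range. The means were 1.53 ± 0.15 (SD, n = 6), 2.16 ± 0.22 (n = 7), 1.97 ± 0.34 (n = 5) and 1.39 ± 0.66 (n = 6) in the order of control, mild, moderate and severe kidneys. The estimate for mild against control was 0.62 (SE 0.21, 95% interval 0.18 to 1.07, limma adjusted p = 0.0857), a separation of ranges that did not pass after adjustment over all genes. For moderate against control it was 0.44 (SE 0.23, limma adjusted p = 0.318) and for severe against control -0.15 (SE 0.22, limma adjusted p = 0.697).

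In severe against mild, in severe against moderate and for the slope, the estimate of *Col4a3* was the largest in size of the 9 collagens. Severe against mild was -0.77 (SE 0.21, 95% interval -1.21 to -0.33, limma adjusted p = 0.129), severe against moderate was -0.58 (SE 0.23, limma adjusted p = 0.406), and the slope was -0.38 for each step of grade (SE 0.12, 95% interval -0.63 to -0.13, limma adjusted p = 0.314). None of these passed. Severe kidney 5 weighed on all of them. Without it the mild estimate kept its size and had a limma adjusted p of 0.0147, beside 1130 genes that passed as higher and 1333 as lower. Severe against control became 0.09 without it. Severe against mild was then -0.53, the value nearest to 0 among the kidneys left out in turn. With only control and mild kidneys in the fit, so that the wide spread of the other grades did not enter, the limma adjusted p was 0.00202 and *Col1a1* also passed as higher (0.0436) and *Col15a1* as lower (0.0426), beside 20.0% of all genes. In the authors' own normalized table the mild estimate was 0.69 (limma adjusted p = 0.0446). Within slides 1, 2 and 3 the mild difference was 0.49, 0.99 and 0.43, and the severe against mild difference was -0.88, -1.41 and -0.30, both untested.

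The summed level of 9 podocyte markers, the cells that make this chain in the glomerulus, was 5.31 to 5.86 in control, 5.08 to 6.16 in mild, 5.20 to 5.61 in moderate and 4.65 to 5.84 in severe kidneys. Within grades the extremes of this sum and of *Col4a3* did not go together. Mild kidney 1 had the highest mild sum and the lowest mild *Col4a3* (1.75). Severe kidney 1 had the lowest severe sum and the highest severe *Col4a3* (2.01). Moderate kidney 2, with the highest moderate sum, had 1.80, and moderate kidney 4, with the lowest, had 2.13. In mild against control kidneys 8 of the 9 markers had a positive change (median 0.34 beside 0.01 for all genes). Of these 1 passed, *Wt1*, by 0.72 (SE 0.21, limma adjusted p = 0.0424), beside 6.02% of all genes. In severe against mild kidneys 7 of the 9 had a negative change (median -0.53 beside -0.01). Of these 1 passed, *Ptpro*, by -0.78 (SE 0.18, limma adjusted p = 0.0413), beside 0.587% of all genes, a call made in 18 of 38 other settings. None of the 9 was below background throughout a group, and the part of podocyte content in the *Col4a3* values was not tested. The partner chain *Col4a5* gave 0.00, -0.35 and -0.36 in mild, moderate and severe against control kidneys and did not pass. For *Col4a4* the brightest probe read -5.62 on the array of severe kidney 4 and 2.49 to 4.12 on the others, while its other 2 probes lay within the range of the other kidneys there, so its estimates rest on that array and are not used.

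*Col15a1* and *Col18a1* encode collagens with interrupted helices that carry sugar chains and link basement membranes to fibrils, and the end of the *Col18a1* product is released as endostatin. *Col15a1* ran from -3.48 to -2.60 in control kidneys (median -2.88) and from -3.89 to -3.10 in mild kidneys (median -3.36). Moderate kidneys had -4.38, -3.57, -3.33, -3.18 and -2.25, and severe kidneys ran from -3.44 to -2.06 with a median of -2.93. All 7 mild kidneys lay below the control mean and 2 below the lowest control, whereas severe kidneys overlapped the controls on both sides of the mean. The estimate was -0.49 in mild (SE 0.26, 95% interval -1.02 to 0.05, limma adjusted p = 0.287), -0.42 in moderate (SE 0.28, limma adjusted p = 0.428) and -0.01 in severe against control kidneys (SE 0.27, limma adjusted p = 0.988). For all mutants it was -0.31 (SE 0.23, limma adjusted p = 0.391), and within slides it was -0.65, 0.02 and -0.29. The other 2 *Col15a1* probes, well above background on 16 and 14 arrays, gave -0.86 and -0.73 for all mutants (limma adjusted p = 0.16 and 0.146). In severe against control kidneys they gave -0.53 and -0.42 (limma adjusted p = 0.5 and 0.518), so the probes did not share the value near 0.

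*Col18a1* ran from 3.94 to 4.77 in control kidneys (median 4.34) and from 3.93 to 4.80 in mild kidneys (median 4.61). Moderate kidneys had 3.76, 4.40, 4.63, 4.86 and 4.98, and severe kidneys ran from 3.53 to 5.39 with a median of 4.71. Of the 18 mutants, 6 lay above the control range and 3 below it. The change was 0.26 (SE 0.19, 95% interval -0.15 to 0.66, limma adjusted p = 0.411) from the brightest probe and 0.25 (SE 0.17, limma adjusted p = 0.361) from the other.

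Weighting arrays by quality, which gave the least weight to severe kidneys 4 and 5 (0.23 and 0.22 in the comparison of all mutants with controls), moved several collagens past the threshold together with many other genes. In *mgb*-/- against control kidneys 6 of the 9 then passed as higher (*Col1a1*, *Col1a2*, *Col3a1*, *Col5a2*, *Col4a3* and *Col18a1*, with estimates of 0.40 to 0.72), beside 30.9% of all genes. In mild against control kidneys 4 passed as higher and *Col15a1* as lower, beside 26.9% of all genes. In moderate kidneys *Col1a1* passed as higher and *Col15a1* as lower (18.8% of all genes), and in severe kidneys *Col18a1* passed as higher (27.1%). *Col4a3* passed as lower in severe against mild kidneys, with -0.69 (limma adjusted p = 0.0201), beside 1.96% of all genes. Each of these estimates had the same sign without weights.

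Over the mutant kidneys the fibrillar chains varied together. *Col1a1* and *Col1a2* had a Pearson r of 0.979 over 17 *mgb*-/- kidneys (Spearman rho 0.958), and *Col1a1* and *Col3a1* had 0.978 (rho 0.966). *Col4a1* and *Col4a2*, whose products assemble into a single molecule, had 0.974 over 18 kidneys (rho 0.965). For each of these 3 pairs the permutation p was 1e-05, the smallest that 100000 resamples can give, two-sided, and the Benjamini-Hochberg adjusted p over the 5 pairs examined was 1.67e-05 for r and for rho. The relations held without the 2 kidneys farthest from the median of the first gene, with r of 0.938, 0.934 and 0.962, and within slides, with r of 0.880 to 0.995. In the 6 control kidneys the same pairs had r of 0.877, 0.886 and 0.955. Kidneys high in type I collagen mRNA were thus also high in type III mRNA.

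The other 2 pairs behaved differently. *Col4a1* and *Col4a3*, chains of different type IV networks, had r = -0.296 (permutation p = 0.235, adjusted 0.235) and rho = -0.0134 (permutation p = 0.961), with r of 0.326, -0.638 and -0.477 within slides 1, 2 and 3. Without severe kidney 5, which was high in *Col4a1* and lowest in *Col4a3*, r was 0.06. *Col15a1* and *Col18a1* had r = 0.571 (permutation p = 0.0155, adjusted 0.0194) and rho = 0.701 (permutation p = 0.00155, adjusted 0.00194), with r of 0.480, 0.857 and 0.557 within slides. Their r fell to 0.335 without severe kidney 5 and moderate kidney 3, so the size of r depended on those kidneys, and rho was not computed without them. In the 6 control kidneys r was 0.0895 for this pair and -0.441 for *Col4a1* with *Col4a3*.

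**Figure D3:**
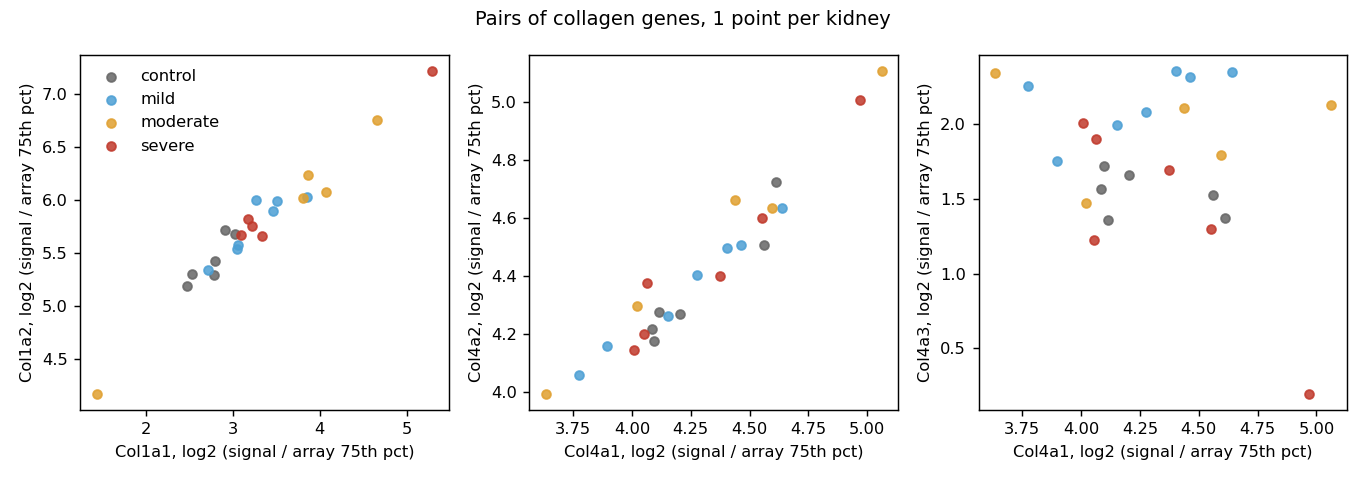
Levels of 3 pairs of collagen genes, 1 point for each kidney, both axes in log2 of the signal over the array's 75th percentile and colours by group. *Col1a1* with *Col1a2* and *Col4a1* with *Col4a2* fall along narrow lines (r = 0.979 and 0.974 in the mutants), and *Col4a1* with *Col4a3* does not (r = -0.296).

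As a description over all members, r among the 4 fibrillar chains was 0.918 to 0.982, and between them and *Col4a1* or *Col4a2* it was 0.790 to 0.832. *Col18a1* had r of 0.611 to 0.756 with the fibrillar chains. *Col4a3* had a negative r with each of the other 8, from -0.296 with *Col4a1* to -0.669 with *Col15a1*. With the fibrillar chains, *Col4a1* and *Col4a2* the sign rested on severe kidney 5 and moderate kidney 5, but not with *Col15a1* and *Col18a1*. Without both, a choice made after seeing the data, r was 0.171 to 0.338 with the fibrillar chains, 0.214 with *Col4a1*, 0.217 with *Col4a2*, -0.446 with *Col15a1* and -0.187 with *Col18a1*. These kidneys share 3 slides and 3 grades.

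**Figure D4:**
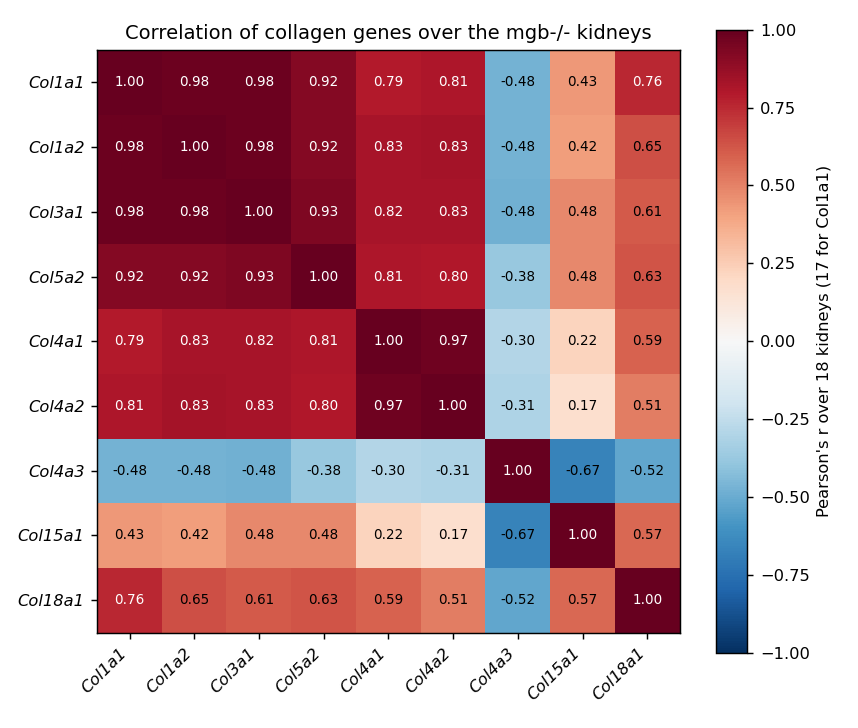
Pearson's r between the levels of the 9 collagens over the 18 *mgb*-/- kidneys (17 where *Col1a1* is involved), from -1 (blue) to 1 (red). The fibrillar chains form a block of 0.918 to 0.982, *Col4a1* and *Col4a2* pair at 0.974, and the negative values of *Col4a3* with the fibrillar and type IV chains turn positive (0.171 to 0.338) without severe kidney 5 and moderate kidney 5.

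Among 16493 named genes, the 5 whose levels were most like *Col1a1* over 23 kidneys were *Col3a1* (r = 0.975), *Col1a2* (0.975), *Col5a1* (0.958), *Adamts2* (0.945) and *Fkbp10* (0.936). *Col5a1* encodes the partner of *Col5a2* in type V collagen, *Adamts2* trims the amino end of procollagen, and *Fkbp10* is a procollagen chaperone. *Col5a2* stood at rank 13 with 0.916. For *Col4a1* over 24 kidneys they were *Col4a2* (0.966), *C1qtnf6* (0.879), *Cavin3* (0.866), *Cmtm7* (0.866) and *Ifitm3* (0.860). For *Col4a3* they were *Hao2* (0.863), *Lpin1* (0.852), *Pxmp2* (0.852), *Lyplal1* (0.842) and *Osbpl1a* (0.838), and none of these is a collagen or a matrix gene. *Hao2* is a peroxisomal oxidase of hydroxy acids, *Pxmp2* a channel of the peroxisomal membrane and *Lpin1* a phosphatidate phosphatase of lipid synthesis.

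Of the other 27 collagen genes tested, 1 rose and 2 fell when mutants were set against controls, a share near the 13.3% of all genes, and the median change was 0.15 beside 0.01 for all genes. *Col8a2*, a chain of the short network collagen type VIII, rose by 1.05 (SE 0.32, limma adjusted p = 0.03) and lay above the highest control in 16 of 18 mutants. *Col6a6*, a type VI chain, fell (limma adjusted p = 0.0201), with a fitted change of -3.22 (SE 0.88) whose size is uncertain because many mutants were near background, and which ran from -3.41 to -1.30 over the other settings. It was well above background in 6 of 6 control, 3 of 7 mild, 4 of 5 moderate and 2 of 6 severe kidneys, and 15 of 18 mutants lay below the lowest control. *Col27a1*, a fibrillar chain best known from cartilage, fell by 0.95 (SE 0.31, limma adjusted p = 0.0417). Their adjusted p was under 0.05 in 28 of 37, 35 of 37 and 22 of 38 other settings, in that order.

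In severe against control kidneys 3 of the other collagens rose and 2 fell, beside 16.1% of all genes. *Col7a1*, the chain of the anchoring fibrils under stratified epithelia, rose by 1.48 (SE 0.35, limma adjusted p = 0.00985), and *Col8a2* by 1.58 (SE 0.35, limma adjusted p = 0.00756). *Col6a4*, another type VI chain, was well above background in 0 of 6 control kidneys. It passed on its measured values (limma adjusted p = 0.0109), but it entered the test only through mutant kidneys, so that p is no support. The severe mean was 2.28-fold the control mean when each control took the higher of its own signal and its array's lowest signal well above background. This figure was not tested and has no interval. *Col27a1* and *Col6a6* fell here too. Urothelial markers moved in the same comparison: all 9 rose in severe against control kidneys, and their summed level was 2.74 to 4.39 in control, 2.52 to 5.97 in mild, 3.88 to 5.89 in moderate and 6.24 to 7.97 in severe kidneys, with none below background throughout a group. Their part in the *Col7a1* and *Col6a4* values was not tested. *Col6a1*, partner of *Col6a3* in type VI collagen, lay above the highest control in 16 of 18 mutants, with a change of 0.53 (SE 0.19, limma adjusted p = 0.0605) that did not pass. *Col6a2* gave 0.13 and *Col5a1* gave 0.53 (limma adjusted p = 0.834 and 0.243).

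**Figure D5:**
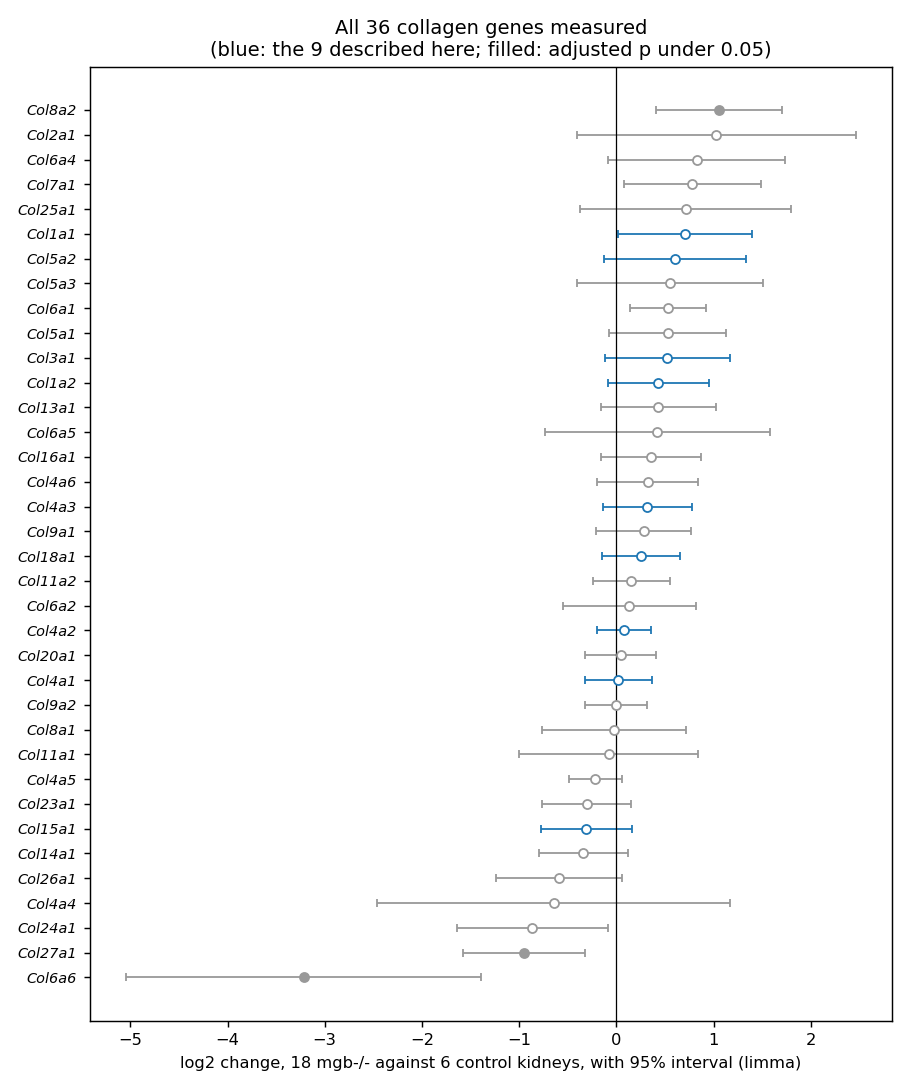
Log2 change with its 95% interval (limma) of all 36 collagen genes measured, 18 *mgb*-/- against 6 control kidneys, in order of size, with the 9 described here in blue and filled points for an adjusted p under 0.05. *Col8a2* is the only filled point above 0, *Col27a1* and *Col6a6* are the filled points below 0, and the wide interval of *Col4a4* includes the aberrant value of severe kidney 4.

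The genes that make and cross-link collagen moved in both directions. Of 29 tested, 4 rose and 3 fell in *mgb*-/- against control kidneys (median 0.11), beside 13.3% of all genes. *Lox*, the lysyl oxidase that starts cross-linking, rose by 1.70 (SE 0.45, limma adjusted p = 0.0169) and lay above the highest control in 16 of 18 mutants. *Adamts2* rose by 0.96 (SE 0.29, limma adjusted p = 0.032, 17 of 18 above the highest control), *Colgalt2*, a galactosyltransferase of hydroxylysine, by 0.82 (SE 0.25, limma adjusted p = 0.0304) and *P3h4*, part of a complex that modifies collagen lysines, by 0.72 (SE 0.20, limma adjusted p = 0.0231). *P4ha1*, the catalytic subunit of the prolyl 4-hydroxylase that stabilises the triple helix, fell by 0.72 (SE 0.14, limma adjusted p = 0.0039). All 18 mutants lay below the lowest control for *P4ha1*, its adjusted p was under 0.05 in each of 38 other settings, and it passed in each grade (mild -0.68, moderate -0.97, severe -0.54). *Mia3*, which helps procollagen leave the endoplasmic reticulum, fell by 0.27 (limma adjusted p = 0.0335) and *Ppib*, a procollagen prolyl isomerase, by 0.25 (limma adjusted p = 0.045). The *Ppib* call was made in 18 of 38 other settings, and its change was -0.086 with quantile normalization and -0.097 in the authors' table.

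Of 19 partners in the basement membrane, 2 rose and 2 fell (median 0.09, 13.3% of all genes). *Lamb2*, a laminin chain of the glomerular membrane, rose by 0.57 (SE 0.12, limma adjusted p = 0.00623). *Fras1*, a membrane-anchored protein under embryonic epithelia, fell by 0.75 (SE 0.20, limma adjusted p = 0.019) and *Lama1*, a laminin chain of tubules, by 0.48 (SE 0.14, limma adjusted p = 0.0304). *Lama3* was the only one of the 19 to differ between severe and mild kidneys, by 0.87 (SE 0.19, limma adjusted p = 0.0361, under 0.05 in 23 of 38 other settings), being lower in mild than in control kidneys by -0.92.

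Of 14 genes of proteoglycans, glycoproteins and elastin in the fibrous matrix, listed as fibril-associated, 4 rose and none fell (median 0.70, 13.3% of all genes). *Thbs1*, thrombospondin, rose by 1.16 (SE 0.31, limma adjusted p = 0.0183), *Eln*, elastin, by 0.74 (limma adjusted p = 0.0221), *Aspn*, asporin, by 0.94 (limma adjusted p = 0.0397) and *Dcn*, decorin, by 0.66 (limma adjusted p = 0.043). Of 8 collagen receptors tested, 3 rose and none fell (median 0.33, 13.3% of all genes): *Itga11*, the integrin chain of fibroblasts that binds fibrillar collagen, by 1.35 (SE 0.33, limma adjusted p = 0.0119), *Ddr2*, a receptor kinase for fibrillar collagen, by 0.74 (limma adjusted p = 0.0252) and *Itga1* by 0.32 (limma adjusted p = 0.0328). Of 12 genes of collagen breakdown or its inhibition, 2 rose and 1 fell (median 0.40, 13.3% of all genes). The risen genes were *Timp2*, a tissue inhibitor of metalloproteinases, by 0.56 (limma adjusted p = 0.0122) and the membrane protease *Mmp14* by 1.01 (limma adjusted p = 0.0389). The collagenase *Mmp13* fell by 1.12 (limma adjusted p = 0.0373).

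These counts depended on single controls and on scaling. Without control kidney 3, none of the biosynthesis genes and none of the fibril-associated genes rose. Median scaling left 1 risen gene each for biosynthesis, basement membrane partners and collagen receptors and 0 for fibril-associated and breakdown genes. *P4ha1* and *Itga11* had an adjusted p under 0.05 in all 38 settings and *Lox* in 36 of 38, but *P4ha1* was not called where a fold of at least 2 was also required.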

How the data were processed

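Each array was scanned in 1 colour and, per the file headers, the authors' Agilent Feature Extraction software gave each spot a background-subtracted intensity that was not normalized between arrays. The authors also deposited a table of whole-number intensities normalized between arrays by a method not given in the sources used here, and it served as an alternative. From the first, log2 values minus the array's 75th percentile were computed, outlier spots were dropped, and spots of a probe were averaged. A probe entered if its spots exceeded background clearly on 5 or more arrays (38834 of 55681 did), the brightest probe stood for a gene, and 26762 probes were named through RefSeq accessions (GRCm38.p6). Groups were compared with limma 3.58.1 in R 4.3.3, on all 24 kidneys in 2 groups (mutant against control) or 4 groups (grades), without covariates. The number of arrays limits the precision. The code was tested on simulated data.

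The collagens, gene lists and markers were chosen with earlier results of these data known. Named genes are the collagens, list genes with an adjusted p under 0.05 in mutant against control or severe against mild kidneys (at most 5 a list and direction), and the 5 genes most like *Col1a1*, *Col4a1* and *Col4a3*. *Wt1*, *Col7a1*, *Col6a4*, *Col6a1*, *Col6a2*, *Col5a1*, *Col4a4* and *Col4a5* were named after their values were seen. Of the other marker lists, 1 of 9 endothelial genes (*Flt1*) and 3 of 9 urothelial genes rose in mutant against control kidneys, beside 13.3% of all genes. There 0 of 7 leukocyte and 0 of 8 proximal tubule genes passed. Alternatives were median scaling, normexp background correction, other filters and thresholds, array weights, blocks for slide and replicate number, the deposited table and leaving out each kidney. A gene counted in a list is not reported here by name.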

Additional observations from a re-analysis of the deposited data

Results flagged for a closer look

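In 8 of 36 groups of kidneys tested, a single kidney lay far from the others, where chance gives about 1 in 20 groups. Moderate kidney 5 was low, with 1.44 for *Col1a1* (next lowest 3.80), 4.17 for *Col1a2* (next 6.02) and -4.76 for *Col5a2* (next -2.44). Severe kidney 5 was high, with 5.30 for *Col1a1* (next highest 3.33), 7.22 for *Col1a2* (next 5.82), 5.74 for *Col3a1* (next 3.91) and -0.93 for *Col5a2* (next -2.66). Mild kidney 4 was low for *Col18a1*, with 3.93 (next 4.44). These chains are strongly correlated, so the values of a kidney are not separate events.

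The effects of the severe and mild grades differed for 8 listed genes that are no members of the collagen set, beside 0.587% of all genes (limma adjusted p in brackets). *Lama3* differed by 0.87 (0.0361) and the podocyte phosphatase *Ptpro* by -0.78 (0.0413). The urothelial genes were higher in severe kidneys, *Upk1a* by 2.80 (0.00586), *Upk1b* by 3.11 (0.00589), *Upk2* by 3.15 (0.00375), *Upk3a* by 2.99 (0.00725), *Upk3b* by 1.88 (0.0465) and *Krt14* by 2.78 (0.00656). With only the severe and mild kidneys in the fit none of the 8 passed (limma adjusted p = 0.0787 to 0.224), but neither did any other of the 27958 genes. Over 38 other settings *Lama3* passed in 23, *Ptpro* in 18 and *Upk3b* in 16.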

How the results depend on the processing

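No collagen passed in the design as reported, and the following settings changed that. In mild against control kidneys 1 (*Col4a3*) was called higher at an adjusted p under 0.1, beside 1422 genes higher and 1570 lower of 27958. It was also called in the authors' table, beside 770 higher and 950 lower. The same held for that table on the other 23 arrays, a setting chosen after seeing the data (1011 and 1169 genes). That setting also called 1 (*Col18a1*) higher in severe against control, beside 1924 genes higher and 2830 lower. With array quality weights 6 were higher in mutant against control kidneys. Against control, the weights also gave 4 higher with 1 lower (mild), 1 higher with 1 lower (moderate) and 1 higher (severe), and in severe against mild 1 was lower. With the compared groups alone 2 were higher and 1 lower in mild kidneys. Leaving out each kidney gave 0 to 1 higher in mutant, mild and moderate against control. *Col4a1* in mutant against control turned to -0.14 with median scaling and -0.29 in the authors' table (0.17 on the other 23 arrays), and ran from -0.025 to 0.087 with kidneys left out. *Col4a2* turned to -0.076 with median scaling. In severe against control, *Col15a1* was 0.17 with normexp and -0.18 to 0.095 with kidneys left out, and *Col4a3* was -0.27 to 0.092. The r of *Col4a1* with *Col4a3* was 0.072 with median scaling and -0.42 to 0.057 with kidneys left out. In the authors' table, where *Col4a1* is aberrant on severe kidney 4, *Col4a1* with *Col4a2* had r = 0.114, and 0.965 on the other 23 arrays, so these shifts came from that array. *Col15a1* with *Col18a1* had 0.159 with normexp, 0.498 in the authors' table and 0.43 to 0.70 with kidneys left out. The cause of the other shifts was not tested. The replicate block called no collagen and moved the genes called in mutant against control from 1493 higher and 2238 lower to 862 and 1262. The numbers did not pair the kidneys (median r 0.00478 over 33 pairs, 6 of 24 kidneys closest to their own number). Over all genes in that comparison, weights called 3552 higher and 5080 lower, a fold of at least 2 called 510 and 353, an adjusted p under 0.1 called 2367 and 3459, and leaving out control kidney 3 called 696 and 1054.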
